A study of Homo sapiens with 2 samples.

Results

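Peaks around start codons are the RNA peaks whose summit lay within 50 nt of the first base of an annotated start codon, counted along the spliced messenger RNA and on its strand. There were 9537 such peaks among the 210205 deposited in all, of which 4589 of 100792 came from replicate 1 and 4948 of 109413 from replicate 2. Each deposited peak names a gene, and the start codon used was that of the representative coding transcript of that gene in GENCODE 29, chosen by its APPRIS rank and then by the length of its coding sequence (CDS). The choice used position only, and neither the reads nor the p-value of a peak. Of the 19811 peak-bearing gene identifiers found in the annotation, those of coding genes were searched, and 19591 coding genes had an annotated start codon. The start codon lay under 50 nt from the transcript's first base in 2976 of them, so their upstream window was cut short.

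The study set out to find stretches of RNA that associate with CCR4-NOT. Its 2 libraries, TRACER replicate 1 and TRACER replicate 2, form 1 group, and both came from HEK293T, a widely used line derived from human embryonic kidney. All of the cells were exposed to doxycycline (3 ug/mL) over 24 hours, and cytoplasmic RNA was made into libraries with a Qiagen protocol meant for microRNAs. The labels do not say what TRACER stands for, which gene, if any, doxycycline switched on, or whether the replicates were separate cultures, and no untreated or input library was analysed here. With no such library, the abundance of a message and its association with CCR4-NOT cannot be told apart. Errors are the SD over the 2 libraries or intervals that cover counting error only, and the spread between the libraries may be technical.

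CCR4-NOT is the main complex that shortens poly(A) tails, and it also represses translation. In yeast its subunit Not5 binds the exit site of ribosomes, and in human cells the complex reaches tubulin messages through TTC5, a protein that recognises the first residues of nascent tubulin as they leave the ribosome. The start codon is where a scanning small ribosomal subunit pauses, is joined by the large subunit and begins elongation. Its recognition is helped by the Kozak context, in which a purine at position -3 and a G at position 4 matter most, when the A of AUG is counted as position 1.

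The sequences around the start codon are shown for genes whose peaks recur in the results, since they show the contexts side by side and which members share one sequence. Each runs from 6 nt before the start codon to 23 nt after its first base in the spliced GENCODE 29 transcript on GRCh38, in the direction of the message, with the start codon in capitals.
HIST2H4A: gcggtcATGtccggcagaggaaagggcgga
HIST2H4B: gcggtcATGtccggcagaggaaagggcgga
HIST1H4E: ttggtcATGtctggtcgcggcaaaggcgga
RPL35: gcagcaATGgccaagatcaaggctcgagat
RPL24: gtcgccATGaaggtcgagctgtgcagtttt
RPS15: ggcaagATGgcagaagtagagcagaagaag
EIF5A: cttaaaATGgcagatgacttggacttcgag
UBB: gtcaaaATGcagatcttcgtgaaaaccctt
RPL41: tgcgccATGagagccaagtggaggaagaag
CNOT2: gactctATGgtgaggactgatggacataca
TUBA1B: gccactATGcgtgagtgcatctccatccac
TUBA1A: gcaaccATGcgtgagtgcatctccatccac
TUBA1C: ctagtcATGcgtgagtgcatctccatccac
TUBB4B: gccatcATGagggaaatcgtgcacttgcag
ATF4: cgcaacATGaccgaaatgagcttcctgagc
The 3 alpha-tubulin sequences differ before the start codon and are the same from it on, and the pair HIST2H4A and HIST2H4B is the same throughout. Those of RPL35, RPL24, RPS15, RPL41, TUBA1B, TUBA1A and TUBA1C cross an intron, and the others lie in a single exon. Each holds the end of a 5′ UTR and the first codons of a CDS. Within 1 exon on the plus strand lie chr1:149832679-149832708 (HIST2H4A), chr6:26204639-26204668 (HIST1H4E), chr17:7309630-7309659 (EIF5A), chr17:16381902-16381931 (UBB), chr12:70278221-70278250 (CNOT2), chr9:137241355-137241384 (TUBB4B) and chr22:39521440-39521469 (ATF4), and on the minus strand chr1:149861108-149861137 (HIST2H4B). With an intron inside the span lie, on the plus strand, chr19:1438420-1438827 (RPS15), chr12:56116782-56117200 (RPL41) and chr12:49265176-49269485 (TUBA1C), and on the minus strand chr9:124861535-124861918 (RPL35), chr3:101686539-101686682 (RPL24), chr12:49129702-49131306 (TUBA1B) and chr12:49186813-49188985 (TUBA1A).

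The start codon peaks were small, like most peaks of these libraries. The median was 7 reads in each library, against 6 reads over all peaks, and the highest was 647 in replicate 1 and 356 in replicate 2. At least 50 reads were found in 210 and 218 of them, and 30.2% and 27.5% held the lowest numbers deposited, 3 or 4. Their median width was 29 and 30 nt, against 27 and 28 nt for all peaks. A deposited p-value of 1e-05 or less was found for 44.8% and 46.7% of start codon peaks, against 33.5% and 36.1% of all peaks. Peaks listed at 1 position under several genes were counted once for shares of peaks, which left 4573 of 96682 (4.73%, exact 95% binomial interval 4.60 to 4.87) and 4933 of 105125 (4.69%, 4.57 to 4.82). Their share of the reads summed over peaks was 4.09% and 4.14%. Mitochondrial messages gave 4 of the peaks in each library.

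Within the window the summits were not evenly placed. There were 1923 and 1988 summits upstream of the start codon, and 2666 and 2960 at it or downstream. The stretch from 10 to 29 nt after the first base of the codon held 1238 and 1374 summits, or 27.0% and 27.8% of all of them. The 10 nt at the codon itself, 0 to 9, held 480 and 521. In genes with the full window the density was 1.23 (95% interval 1.15 to 1.30) and 1.32 (1.24 to 1.40) times as high from the start codon on as in the 50 nt before it. Around the limit of the window there were 443 and 507 summits from 41 to 50 nt, just inside, and 440 and 467 from 51 to 60 nt, just outside. On the upstream side there were 289 and 274 from -50 to -41, and 227 and 255 from -60 to -51.

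A wider view was taken over genes whose 5′ UTR is at least 200 nt and whose CDS is at least 300 nt, so that each contributes every position. There were 5919 such genes with a peak in replicate 1 and 5996 in replicate 2. Far upstream, from -200 to -51, the density, summed over these genes, was 11.7 and 13.4 summits per nt. It was higher in the last 50 nt before the start codon, at 19.3 and 20.4, and 20.3 and 24.1 at the codon (0 to 9). The highest density came just after it. From 10 to 29 nt there were 27.75 summits per nt (exact 95% Poisson interval 25.5 to 30.2) in replicate 1 and 29.7 (27.4 to 32.2) in replicate 2. Farther into the CDS, from 51 to 199 nt, it was 20.4 and 23.2. The single nucleotide with the most summits over both libraries was 13, with 40 in replicate 1 and 42 in replicate 2.

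**Figure D1:**
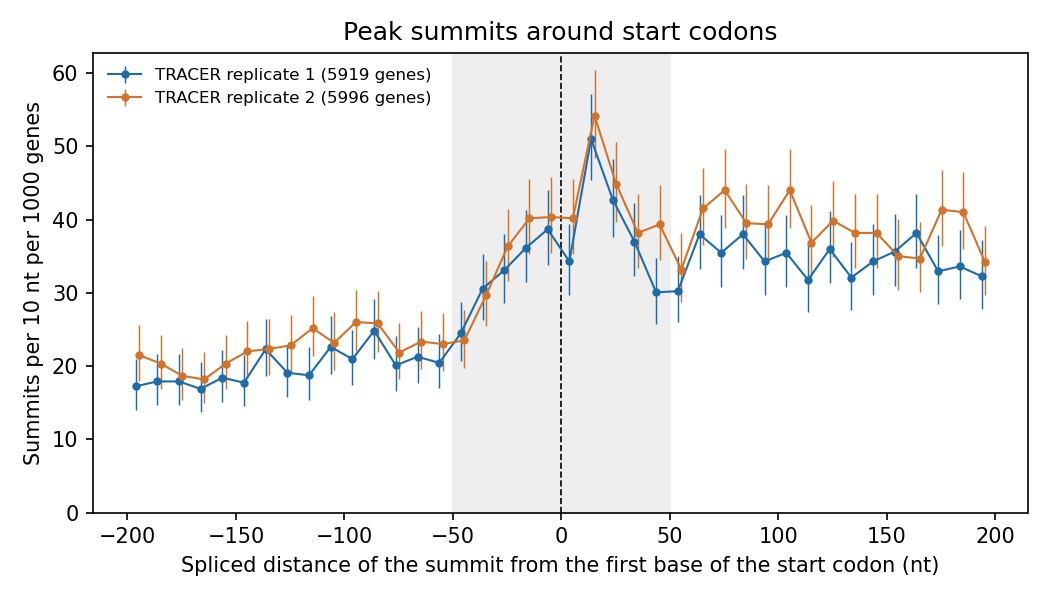
Summits per 10 nt and per 1000 genes (vertical axis) against the spliced distance from the first base of the start codon in nt (horizontal axis), for TRACER replicates 1 and 2, with exact 95% Poisson intervals. The shaded band is the window of 50 nt on each side, and in both libraries the bin from 10 to 19 nt is the highest, at 51.02 and 54.2 summits per 1000 genes.

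The stretch from 10 to 29 nt was singled out after this profile had been seen, and its ratios are descriptions without a test. Relative to 51 to 199 nt of the same CDS its density was 1.36 times (1.24 to 1.49) and 1.28 times (1.17 to 1.40) as high. It was also higher than in the 50 nt before the codon, by ratios of 1.44 and 1.46. Among peaks of at least 10 reads the ratio to the later CDS was 1.47 and 1.35, and among peaks found in both libraries 1.40 and 1.37. Leaving out all genes of the lists described below gave 1.36 and 1.29. Genes with a strong Kozak context had 1.34 and 1.24, and the other genes 1.37 and 1.31. By the G and C content of the window, the ratios from the lowest to the highest of 4 classes of genes were 1.34, 1.504, 1.39 and 1.15 in replicate 1, and 1.32, 1.26, 1.33 and 1.22 in replicate 2. In the 860 and 854 genes with no exon junction up to 199 nt after the codon the ratio was 1.35 (0.976 to 1.84) and 1.34 (1.01 to 1.76), so the value was alike but its interval reached 1 in replicate 1. The ratio to the 50 nt before the codon differed more by G and C content. In the lowest class it was 1.16 (0.921 to 1.45) and 1.18 (0.938 to 1.47), with both intervals including 1. In the highest class it was 2.07 (1.59 to 2.68) and 1.95 (1.55 to 2.44).

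The start codon window was next compared with other windows of 101 nt in the same transcripts, which asks whether it holds a summit in more genes than they do. Genes entered when the 4 windows fit without overlap, which left 9836 in replicate 1 and 9930 in replicate 2. The start codon window held a summit in 29.8% and 32.0% of them. The window around the middle of the CDS did so in 23.5% and 25.3%, and that around the stop codon in 19.6% and 20.7%. Against the middle of the CDS, 1750 genes had a summit at the start only and 1132 in the middle only in replicate 1, a ratio of 1.55 (1.43 to 1.67). In replicate 2 the numbers were 1905 and 1236, a ratio of 1.54 (1.43 to 1.66). By a two-sided exact McNemar test over genes, the adjusted p was 1.28e-30 and 1.09e-32, with Benjamini-Hochberg adjustment over 6 tests. Against the stop codon the ratio was 2.01 (1.86 to 2.17) with 1995 genes against 993, and 2.09 (1.94 to 2.25) with 2146 against 1027. The adjusted p by the same exact test was 7.40e-76 and 9.49e-89. Genes are not replicates, so these p-values describe each library.

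The next 101 nt of the CDS, from 51 to 151 nt, came close to the start codon window. They held a summit in 28.3% and 31.0% of genes. The ratio of genes with a summit at the start only to those with one in the next window only was 1.103 (1.03 to 1.19) in replicate 1 and 1.06 (0.991 to 1.14) in replicate 2. The adjusted p by the same exact test was 0.00884 and 0.0882, so the difference did not pass the threshold of 0.05 in both libraries and was not called. With windows of 25 nt on each side it was called, with a mean ratio of 1.13. In the 1420 and 1416 genes with no exon junction in any of the 4 windows, the ratios were 1.097 and 1.005 to the next window, 1.57 and 1.59 to the middle and 1.55 and 1.73 to the stop codon.

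**Figure D2:**
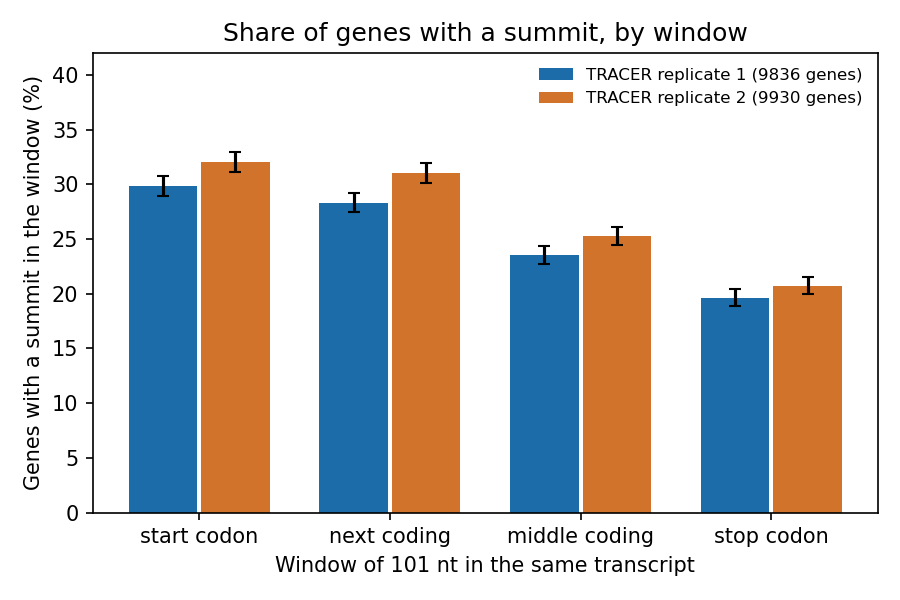
Percent of genes with at least 1 summit (vertical axis) in each of 4 windows of 101 nt of the same transcript (horizontal axis), for TRACER replicates 1 and 2, with exact 95% binomial intervals. The bars at the start codon reach 29.8% and 32.0%, near the next coding window and above those at the middle of the CDS and the stop codon.

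Of the start codon peaks, 1525 of 4589 (33.2%, exact 95% binomial interval 31.9 to 34.6) and 1661 of 4948 (33.6%, 32.3 to 34.9) contained the whole start codon. That share was 84.8% and 86.4% for summits from 0 to 9 nt, 76.2% and 78.4% from -10 to -1, and 35.2% and 35.1% from 10 to 29. Elongating ribosomes move in steps of a codon, and footprints of single ribosomes show that period in their ends. The lists hold the edges of called peaks and not the ends of reads, so a period of single ribosomes was not tested. Frames were counted for the 4253 and 4631 members whose first base lay in an exon of the representative transcript. That base lay in the 3 reading frames in 34.1%, 33.5% and 32.4% in replicate 1, and in 33.6%, 33.0% and 33.4% in replicate 2. The interval of the most frequent frame was 32.7 to 35.6 and 32.2 to 34.98, so an equal share lay within both. Among peaks that began at or after the codon, the third frame held 29.5% (27.3 to 31.7) in replicate 1, under an equal share, and 31.5% (29.5 to 33.7) in replicate 2. The first frame held 35.9% (33.6 to 38.3) in replicate 1, above an equal share, and 34.6% (32.5 to 36.8) in replicate 2. Frames were also counted for summits and last bases. In replicate 2 the interval of every frame, at each of these points, included an equal share.

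An exon junction lies inside many of these windows, and the peaks were listed exon by exon. The edge of a peak reached within 2 nt of a junction in 1511 members (32.9%) of replicate 1 and 1610 (32.5%) of replicate 2. Most genes had 1 start codon peak, namely 2875 of 3670 and 3096 of 3955, and no gene had more than 5. Of the 795 and 859 genes with several, 562 (70.7%) and 603 (70.2%) had them on 2 or more exons, where the same spliced reads may have been counted on either side. Sums of reads over such peaks can therefore count a read more than once. In 742 and 780 members an edge of the peak ran past the exon of the representative transcript.

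Start codon peaks overlapped a peak of the other library, by at least 1 nt, in 67.6% (66.2 to 68.9) of replicate 1 and 62.9% (61.5 to 64.2) of replicate 2, a mean of 65.2% ± 3.31 (SD, n = 2). The share was lower for peaks of the rest of the 5′ UTR, at 59.7% and 54.5%, and of the CDS between the start and stop codon windows, at 59.9% and 52.5%. Peaks at the stop codon had 64.7% and 61.1%, and those of the later 3′ UTR 57.0% and 54.0%. Overlap followed the reads in a peak. Among start codon peaks it was 39.3% and 31.8% at 3 to 4 reads, 65.4% and 57.5% at 5 to 9, 86.9% and 82.4% at 10 to 19, and 100% and 98.6% at 50 or more. At 3 to 4 reads the remaining CDS had 35.3% (34.6 to 35.99) and 25.6% (25.02 to 26.3), below the start codon peaks, whose intervals were 36.7 to 41.9 and 29.3 to 34.4. At 10 to 19 reads it had 88.7% (88.0 to 89.5) and 80.4% (79.6 to 81.2), where the intervals overlapped those of the start codon peaks, 84.6 to 89.0 and 79.998 to 84.6.

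There were 2984 overlapping pairs of start codon peaks, in 2318 genes. The 2 summits of a pair lay a median of 4 nt apart, and within 10 nt in 75.2% of pairs. The reads of the strongest pair of each gene were within 2-fold of each other in 86.6% of genes. Across these 2318 genes the log2 reads of the libraries had a Pearson coefficient of 0.862 and a Spearman coefficient of 0.801. Genes are not independent replicates, and both libraries share the abundance of each message, so these coefficients are descriptions.

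**Figure D3:**
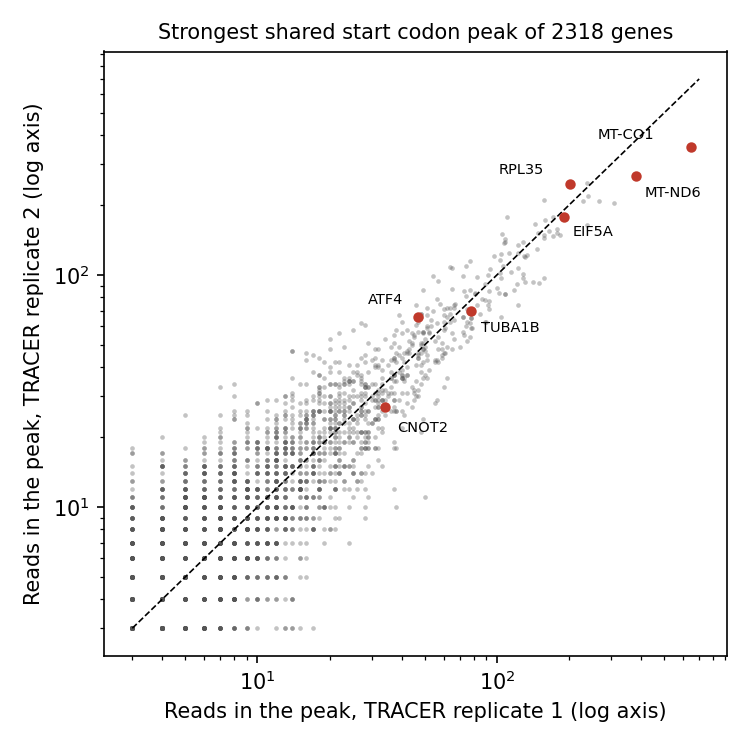
Reads in the strongest start codon peak found in both libraries, in TRACER replicate 2 (vertical log axis) against TRACER replicate 1 (horizontal log axis), with 1 point per gene for 2318 genes, 7 of them named, and the line of equal reads. Points spread more at low reads, and the mitochondrial gene MT-CO1 lies at the top with 647 and 356 reads.

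Start codon peaks were found in 3670 genes of replicate 1, or 30.6% of the 12000 coding genes with any peak there, and in 3955 genes of replicate 2, or 32.7% of 12089. Of the 11126 coding genes with a peak in both libraries, 2513 had a start codon peak in both, which is 22.6%. Another 1157 genes had one only in replicate 1 and 1442 only in replicate 2, which makes 5112 genes in all. The 2513 genes shared an overlapping site in 2318 cases (92.2%). Whether a gene had such peaks in both libraries followed how many reads its peaks held. Those reads include the start codon peaks themselves, and each peak holds at least 3, so part of this rise follows from the counting. The share was 2.20% of genes with 3 to 9 peak reads (mean of the libraries), 8.87% at 10 to 29, 24.6% at 30 to 99, 43.7% at 100 to 299 and 66.1% at 300 or more. In the 2513 genes, start codon peaks held a median of 13.7% of the gene's peak reads (quartiles 8.10 and 22.6%). In 110 of them the mean was at least 50%.

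The 10 genes with the strongest shared peak were mitochondrial messages, histones, and genes of translation and ubiquitin. The last of them, EIF5A, tied at a mean of 184 reads with the calmodulin gene CALM2 (158 and 210), which is not counted among the 10. MT-CO1, a mitochondrially encoded subunit of cytochrome oxidase, had 647 reads in replicate 1 and 356 in replicate 2, with summits 43 and 42 nt after its start codon, and 30 nt at its summit also occur in the pseudogene MTCO1P12. MT-ND6, a subunit of complex I, had 383 and 268 reads at 27 and 26 nt. These messages have no 5′ UTR and are made and translated inside mitochondria. Among genes of the nucleus, the histone H4 genes HIST2H4A (310 and 205 reads), HIST1H4E (239 and 248) and HIST2H4B (267 and 208) led, with summits from 11 to 25 nt. The histone H3 genes HIST2H3C (241 and 218) and HIST2H3A (230 and 209) were also among the 10, with summits from 30 to 40 nt. HIST2H4A and HIST2H4B share an identical run of 557 nt, and HIST2H3A and HIST2H3C one of 1620 nt, so the reads of each pair cannot be assigned to 1 gene.

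The other 3 were single-copy at the summit, with no copy of its 30 nt in another annotated gene's transcripts. RPL35, a protein of the large ribosomal subunit, had 202 and 246 reads, 42 and 40 nt after its start codon. That peak lay at chr9:124861504-124861555 on the minus strand, in coding sequence of the exon after the one with the start codon. UBB, a polyubiquitin gene, had 238 and 165 reads, 46 and 44 nt before its start codon. EIF5A, a translation factor that helps ribosomes through difficult peptide bonds, had 191 and 177 reads, 28 and 29 nt before it. Its peak lay at chr17:7307694-7307749 on the plus strand, in 5′ UTR sequence of an exon upstream of the one with the start codon. In all 3 the libraries placed the summit within 2 nt of each other.

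Some genes carried most of their peak reads at the start codon. Among genes with at least 50 peak reads in each library, the named ones had means above 50%. RPL41, which encodes the shortest ribosomal protein, had 66.7% and 60.5%. HIST1H4D had 69.0% and 61.8%, and HIST1H4E 63.8% and 52.9%. The ubiquitin-like gene NEDD8 had 55.8% and 65.6%, and the readthrough gene NEDD8-MDP1, whose start codon peaks are those of NEDD8, 56.9% and 66.9%. COX6C, a subunit of cytochrome oxidase, had 52.2% and 67.9%. DYNLRB1, a dynein light chain, had 56.5% and 58.5%, and CYSTM1, a small membrane protein, 55.0% and 58.3%. SCAND1 had 78.8% of 52 reads and 38.1% of 97 reads, so its libraries differed by more than those of the others. The 101 nt window covers more of a short message, and the CDS of the 2288 genes called in both libraries and holding the full window had a median of 1002 nt.

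Groups of genes were then read against the 22.6% of all coding genes and against an even spread. The even spread puts the exonic summits of each gene evenly along its representative transcript, UTRs included. Over all coding genes the start codon window held 1.72 times (1.67 to 1.77) and 1.70 times (1.65 to 1.75) as many summits as it predicts. That ratio is not an excess over the nearby CDS. In the genes of the wider view the whole window held 21.2 and 23.2 summits per nt. From 51 to 199 nt the density was 20.4 and 23.2. The gene lists were written with earlier results of these data known. They are described by counts without a test. Where a list's median of peak reads per gene lies from 100 to 299, the share of all genes in that range is 43.7%, which applies to the initiation factors (219.75), tubulins (119.5), oxidative phosphorylation genes (160.5) and histones (181). For the CCR4-NOT subunits (97.25) the range is 30 to 99 reads, with 24.6%.

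**Figure D4:**
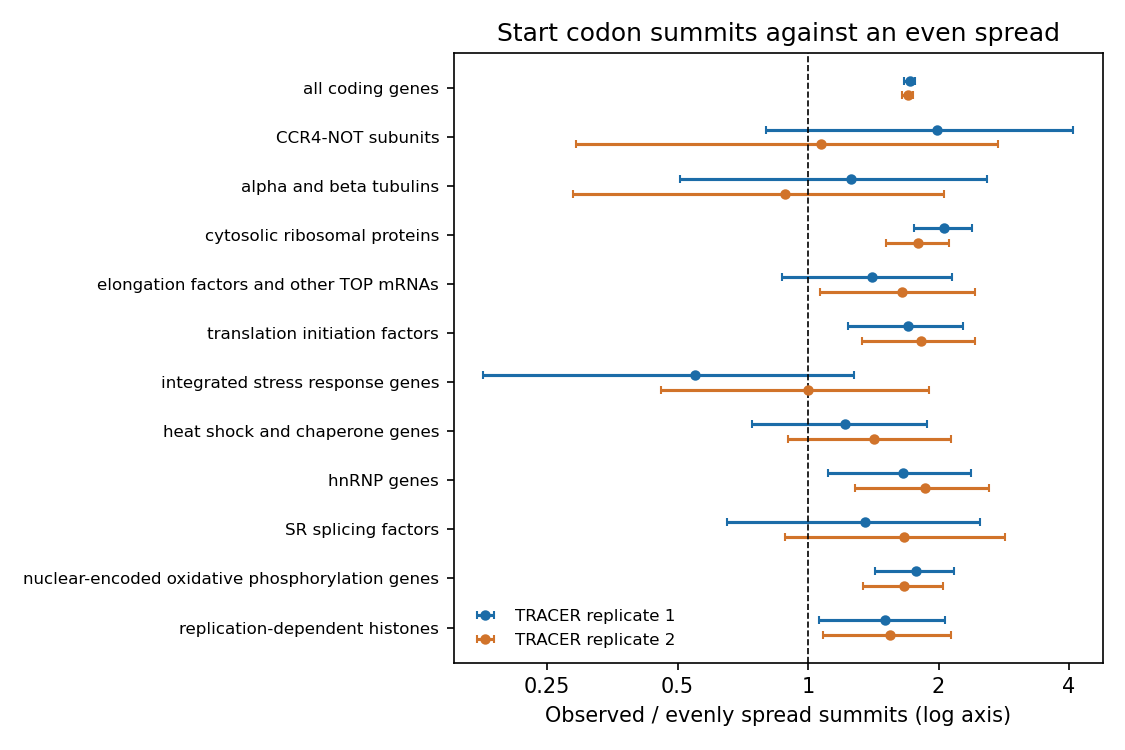
Observed summits in the start codon window divided by those of an even spread along each gene's transcript (horizontal log axis) for all coding genes and for 11 gene lists (rows), for TRACER replicates 1 and 2, with exact 95% Poisson intervals. All coding genes lie at 1.72 and 1.70, most lists overlap that value, and the integrated stress response genes lie at 0.548 and 1.0. The BTG and TOB genes are not drawn, since replicate 1 had 0 summits.

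Ribosomal protein genes had start codon peaks in both libraries more often than coding genes as a whole, at 72 of 80 (90%). Their median was 555 peak reads a gene, against 41.5 over all coding genes, and the share among all genes with at least 300 peak reads was 66.1%. Start codon peaks held 16.9% and 14.3% of their peak reads, against 7.15% and 6.73% over all coding genes. Against the even spread their ratios were 2.06 (1.76 to 2.39) and 1.79 (1.51 to 2.11), whose intervals include the value of all genes in replicate 2 and not in replicate 1. RPL24 had the most start codon reads, 459 and 494 summed over 3 and 4 peaks, with summits of the strongest at 3 and 6 nt, on either side of an exon junction, and 30 nt of its summit also occur in RPL24P4. RPS15 had 178 and 158 reads in its strongest peak, at 9 and 8 nt, in the exon after the one with the start codon. RPL8 had 165 and 155 at 24 nt in both. RPL21 and RPL36AL had no start codon peak in either library, and were named after their values had been seen.

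The list of elongation factors and other messages with a 5′ terminal oligopyrimidine tract, which ties translation to growth signals, had them in 14 of 21 genes (66.7%), near the 66.1% of all genes with at least 300 peak reads, the range of the list's median of 899. The peaks held 4.56% and 4.59% of their reads. EEF1A1, the factor that delivers aminoacyl-tRNA, had 171 and 147 reads at 50 and 49 nt, at the edge of the window, and 30 nt of that summit also occur in 3 of its pseudogenes. EEF1G, another subunit of elongation factor 1, had 52 and 56 at 13 and 15 nt, and 30 nt of that summit also occur in transcripts of AC008038.1 and CHCHD3. RACK1, a scaffold on the small ribosomal subunit, had 50 and 37 at 8 and 3 nt.

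Among translation initiation factors 23 of 44 (52.3%, exact interval 36.7 to 67.5) had start codon peaks in both libraries. That interval includes the 43.7% of all genes with 100 to 299 peak reads. The peaks held 7.76% and 6.59% of the factors' reads, with ratios to the even spread of 1.70 and 1.82. After EIF5A came EIF1AX and EIF1, factors that keep the scanning ribosome in an open state until it meets the start codon. EIF1AX had 48 and 46 reads, 26 and 29 nt before the codon. EIF1 had 62 and 72 reads at -7 and -4 nt, in a peak that covered the start codon in both libraries and held 12.6% of the gene's reads in each.

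The integrated stress response, in which phosphorylated eIF2 lowers general translation and favours messages with upstream reading frames, had start codon peaks in both libraries in 3 of 22 genes (13.6%). The exact interval, 2.91 to 34.9%, includes the 22.6% of all coding genes. It lies below the 43.7% of all genes with 100 to 299 peak reads, the range that holds the list's median of 194. Their peaks held 1.63% and 2.40% of the reads, and the ratios to the even spread were 0.548 (0.178 to 1.28) and 1.0 (0.457 to 1.90). ATF4, the transcription factor at the centre of that response, had 47 and 66 reads at 20 and 18 nt, or 6.01% ± 0.433 of its peak reads. PPP1R15B, a subunit of the phosphatase that acts on eIF2, had 7 and 12 reads at -9 and -5 nt. The other gene was ATF5, named for the small count, with 4 and 7 reads. EIF2AK1, a kinase of eIF2, had a strongest peak of 20 reads in replicate 2 and none in replicate 1.

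The CCR4-NOT subunits had start codon peaks in both libraries in 4 of 12 genes (33.3%, exact interval 9.92 to 65.1), against 22.6% of all coding genes. CNOT7, a deadenylase, had the most, 105 reads in replicate 1 and 150 in replicate 2, at 48 and 46 nt. The 30 nt at that summit also occur in transcripts of AC104806.1 and of the pseudogene CNOT7P2, so its reads cannot be assigned to 1 gene. CNOT2, a subunit of the NOT module, had 34 and 27 reads at 5 and 6 nt, in peaks that covered the start codon, at chr12:70278190-70278255 in replicate 1 and chr12:70278194-70278264 in replicate 2 on the plus strand. They held 39.1% of its 87 reads and 23.1% of its 117 reads, a mean of 31.1% ± 11.3. CNOT8, another deadenylase, had 9 and 11 reads, 35 and 43 nt before the codon, and CNOT9, a subunit that binds adaptor proteins, 10 and 12 reads, 48 and 34 nt before it. CNOT4, the ubiquitin ligase associated with the complex, had 5 reads at 20 nt in replicate 1 and none in replicate 2. The scaffold gene CNOT1 and CNOT3, CNOT6, CNOT6L, CNOT10, CNOT11 and TNKS1BP1 had none. The BTG and TOB genes, whose proteins bind the deadenylases, had them in 0 of 5 in both libraries (exact interval 0 to 52.2%). That interval includes the 43.7% of all genes with 100 to 299 peak reads, the range that holds the list's median of 133.5. In replicate 2 alone TOB2 had 21 reads and BTG1 had 9.

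The tubulin genes had start codon peaks in both libraries in 4 of 13 (30.8%, exact interval 9.09 to 61.4). That interval includes the 43.7% of all genes with 100 to 299 peak reads. The tubulins' ratios to the even spread were 1.26 (0.506 to 2.59) and 0.883 (0.287 to 2.06). The alpha-tubulin genes TUBA1B (78 and 70 reads), TUBA1A (76 and 69) and TUBA1C (75 and 63) each had 1 peak, with summits from 24 to 26 nt after the start codon. The 51 nt from the codon on are the same in all 3, and runs of at least 140 nt are shared, so these may be the same reads listed at 3 loci. The peaks began downstream of the codon, at chr12:49129681-49129718 for TUBA1B in replicate 1, in the exon after the one with the codon. They held 4.24% ± 0.163 of the peak reads of TUBA1B, 6.76% ± 0.404 of TUBA1A and 5.61% ± 0.716 of TUBA1C. The beta-tubulin gene TUBB4B had 24 and 29 reads at 16 and 14 nt, at chr9:137241365-137241393 on the plus strand in both libraries, or 6.98% ± 0.125 of its reads. Another 4 beta-tubulins had a peak in 1 library only, and the remaining 10 tubulin genes of the list had none. TUBB6 had 12 reads, TUBB4A 8 and TUBB3 6 in replicate 1, and TUBB had 8 in replicate 2. The 30 nt at the summit of TUBB6 also occur in TUBB2A and TUBB2B, and those of TUBB3 in TUBB4A. The reads of TUBB6 and TUBB3 therefore cannot be assigned to 1 gene. The shares of peak reads above stand beside 7.15% and 6.73% over all coding genes.

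Histones of the cell cycle, whose messages end in a stem-loop in place of a poly(A) tail, had start codon peaks in both libraries in 31 of 63 genes (49.2%). The exact interval, 36.4 to 62.1%, includes the 43.7% of all genes with 100 to 299 peak reads. Start codon peaks held 15.8% and 14.2% of the histones' peak reads, at ratios of 1.502 (1.06 to 2.07) and 1.54 (1.08 to 2.14) to the even spread. Many histone genes share long sequence, so these 31 genes are fewer independent sites than their number. Nuclear genes of oxidative phosphorylation had them in 55 of 77 (71.4%), with 15.5% and 14.0% of their reads and a median of 160.5 reads a gene. Their ratios of 1.77 and 1.66 were near those of all genes. COX7C had an overlapping pair of peaks with 78 and 65 reads, at 4 and 7 nt, and in replicate 1 a stronger one of 98 reads at -39 nt. UQCRH, a subunit of complex III, had 108 and 83 reads at 6 and 4 nt over the start codon, and its 30 nt also occur in UQCRHL.

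Chaperone genes had start codon peaks in both libraries in 12 of 23, hnRNP genes in 14 of 24 and SR splicing factor genes in 8 of 14. These shares were 52.2% (exact interval 30.6 to 73.2), 58.3% (36.6 to 77.9) and 57.1% (28.9 to 82.3). Each interval includes the 66.1% of all genes with at least 300 peak reads, the range that holds the medians of all 3 lists. Among chaperones HSPE1, the mitochondrial co-chaperonin, had 128 and 139 reads at -14 and -11 nt, HSPA5, the chaperone of the endoplasmic reticulum, 60 and 63 reads at -42 nt in both, and DNAJA1 32 and 27 at -5 and -6 nt. Among hnRNP genes HNRNPA2B1 had 402 and 449 reads over 4 peaks in each library, HNRNPH1 had 92 and 100 reads at 12 and 15 nt, and PCBP2 72 and 99 at 1 and 4 nt, where 30 nt also occur in AC023509.1. Among SR genes SRSF7 had 51 and 72 reads at 20 and 22 nt and SRSF9 had 49 and 51 at -20 and -7 nt. SRSF5 had a strongest peak of 39 reads in replicate 2 and none in replicate 1. The strongest peaks of HSPE1, DNAJA1, HNRNPH1, PCBP2, SRSF7 and SRSF9 covered the start codon in both libraries.

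What genes with these peaks share, beyond position, was read from 2288 genes with a start codon peak in both libraries and 5324 with one in neither, each with a peak elsewhere or at the start in both libraries and with the full window of sequence. A purine at position -3 was found in 90.6% of genes with start codon peaks and 83.9% of those without, a difference of 6.70 percentage points (95% Newcombe interval 5.11 to 8.22). The strong context, with a G at position 4 as well, was found in 48.3% and 40.9%, a difference of 7.39 points (4.96 to 9.83). Within the 50 nt upstream an ATG in any frame was found in 13.6% and 17.6%, a difference of -3.94 points (-5.65 to -2.17). The second codon was one for alanine in 26.9% and 23.5%, a difference of 3.42 points (1.30 to 5.59). Genes with and without start codon peaks also differed in peak reads, a sum that includes the start codon peaks, with medians of 95.5 and 23. Their CDS lengths had medians of 1002 and 1602 nt.

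Within classes of peak reads the strong context stayed more frequent. It was 48.7% of genes with start codon peaks and 41.7% of those without under 30 reads (difference 0.739 to 13.2 points), 47.7% and 40.3% from 30 to 99 reads (3.33 to 11.3), and 48.8% and 38.9% at 100 reads and over (5.11 to 14.6). The purine at -3 differed by 6.48 and 8.15 points in the upper classes. Under 30 reads the difference was 1.02 points with an interval of -3.94 to 5.04. The upstream ATG differed in the class of 100 reads and over, at 9.11% of genes with start codon peaks and 12.3% of those without, while from 30 to 99 reads it was 17.6% and 17.4%. The alanine codon differed by -0.193 points (-5.09 to 5.44) under 30 reads and 1.26 (-2.16 to 4.78) from 30 to 99 reads. At 100 reads and over its difference was 4.57 points (0.225 to 8.78). The largest difference of those compared was an exon junction in the window, in 52.1% of genes with start codon peaks and 38.7% of those without (13.4 points, 10.9 to 15.8), and it was 21.7 points at 100 reads and over. In genes with no junction in the window the strong context still differed by 6.35 points (2.95 to 9.76) and the purine by 5.78 (3.49 to 7.89). The part of peak reads, message abundance, length and junctions in these differences beyond these classes was not tested.

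**Figure D5:**
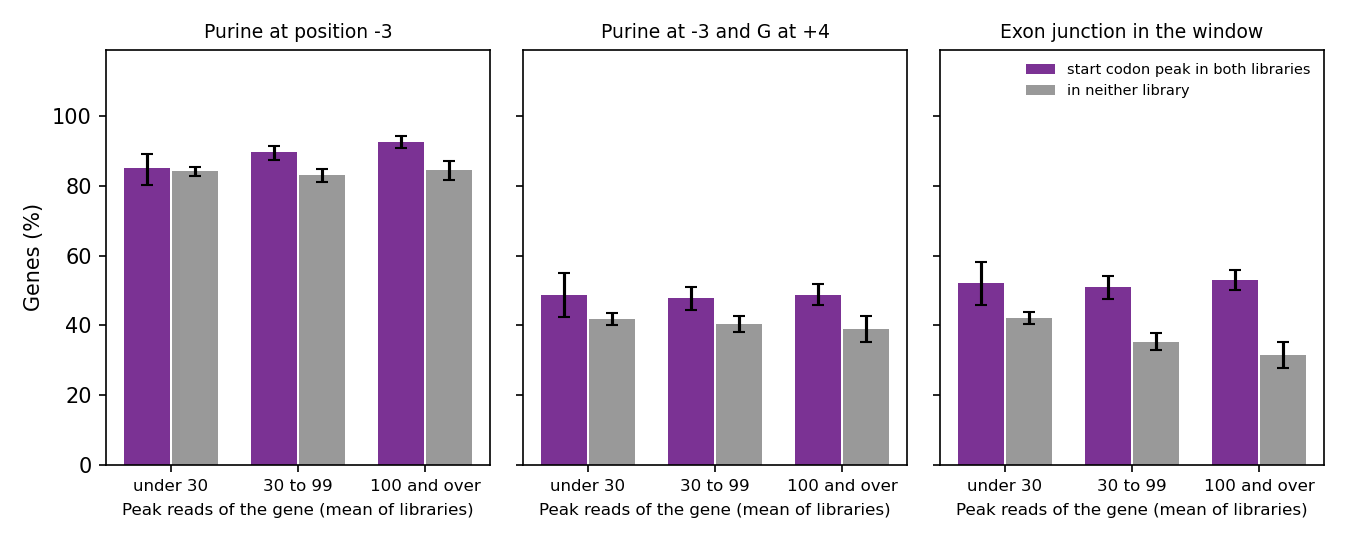
Percent of genes (vertical axis) with a purine at position -3, with the strong context, and with an exon junction in the window (3 panels), by the peak reads of the gene (horizontal axis), for genes with a start codon peak in both libraries and in neither, with exact 95% binomial intervals. At 100 reads and over the strong context stands at 48.8% and 38.9%, and the junction at 53.0% and 31.3%.

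Over all read classes together, base composition and predicted folding differed little. The median G and C content was 66% in both groups in the 50 nt before the codon. After it, it was 58.3% in genes with start codon peaks and 60.4% in genes without. Within classes of peak reads, the medians before the codon were 66% with and 64% without such peaks under 30 reads. They were 66% and 68% from 30 to 99 reads, and 64% and 68% at 100 reads and over. After the codon they were 58.3% and 62.5% in both upper classes. The median minimum free energy that RNAfold predicts for the 101 nt was -31.85 kcal/mol in genes with start codon peaks and -32.4 kcal/mol in genes without. The 5′ UTR had a median of 213 nt and 238 nt. Exact copies limit how far reads can be placed. Of the 5112 genes with a start codon peak in either library, 563 (11.01%) had the 30 nt at their strongest summit in a transcript of another gene, and 227 shared the position of a peak with another gene entry.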

How the data were processed

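RNA peaks were measured in 2 TRACER libraries of 1 group, with the replicate numbers of the sample titles. The submitters' processing notes name STAR 2.7.11, UMI-tools 1.1.4, cutadapt 4.2 and the build GRCh38, but no step for any of them. The authors deposited 1 CLIPper peak list per library, with an unadjusted p-value per peak (all under 0.05) and a whole number of reads, at least 3, in the peak's name. Total sequencing depth is not known from the lists. For CLIPper, neither version nor annotation is known from these sources.

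The midpoint of the thick interval gave the summit, which was mapped along the spliced representative transcript (GENCODE 29), with the first start codon base as 0. Of 20048 gene identifiers, 19811 were matched. Gene reads are sums over peaks, and a read may enter several. Windows were compared with McNemar's exact test over genes, called where each library had an adjusted p under 0.05 and their directions matched. Intervals (95%) are binomial, Poisson or Newcombe and cover counting error only, since reads are not independent molecules. An exact copy was a match of 30 nt in an annotated transcript of another gene. The placement and window code was tested on simulated data. Python 3.11.15, numpy 2.4.6, pandas 2.3.3, scipy 1.17.1, matplotlib 3.10.9 and RNAfold 2.7.2 were used.

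Members, tests and the 12 gene lists were chosen with earlier results of these data known. The genes named are the 10 with the strongest peak shared by both libraries, and the 10 with the highest share of their peak reads at the start codon among those with at least 50 peak reads in each library. One gene of that rule is not reported here. Each list adds its 3 members with the most start codon reads, and the text names every CCR4-NOT subunit and tubulin with a start codon peak. Alternatives were another distance, p-value, read minimum, transcript choice, overlap rule, gene set or library left out. Genes without exon junctions were added after the data had been seen.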

Additional observations from a re-analysis of the deposited data

How the results depend on the processing

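The excess over the middle of the CDS and over the stop codon was called under each alternative that was run, with mean ratios of 1.41 to 1.58 and 1.64 to 2.14, and no result reversed. The mean ratio to the next coding window, 1.08 and not called, was called within 25 nt (1.13) and when distance was taken from the nearest base of the codon (1.09). Leaving out 1 library gave 1.06 to 1.103, called without replicate 2 only. The share of peaks at start codons, 4.71%, was 2.67% within 25 nt, 4.80% by the nearest base, 6.14% at p at or under 1e-05, 6.16% at 10 or more reads, 4.37% with the longest CDS, 4.4998% without copied windows and 7.14% with any coding transcript. The share of genes with start codon peaks in both libraries, 22.6% (2513 genes), was 12.5% (1395) within 25 nt, 19.5% (1198 of 6149) at p at or under 1e-05, 20.1% (1027 of 5099) at 10 or more reads, 21.0% with the longest CDS and 30.1% with any coding transcript, and 30.6 to 32.7% in 1 library alone. The mean density ratio of downstream to upstream, 1.27, was 1.45 at that p, 1.47 at 10 or more reads and 1.46 without exon junctions. Overlap between libraries, 65.2%, was 73.9% and 74.6% at that p and read minimum, 56.5% when at least 50% of the peak had to overlap and 48.4% for summits within 10 nt. The share of peaks that contain the codon, 33.4%, was 53.0% within 25 nt, 32.8% by the nearest base, 46.0% at that p and 47.1% at 10 or more reads. The most frequent frame, 33.9%, had 35.4%, 34.4% and 34.5% within 25 nt, at that p and at 10 or more reads. A narrower window or a read minimum changes which peaks enter, and other causes were not tested. No paired analysis was possible because there is 1 group. The unknown depth and the minimum of 3 reads limit what can be seen in weakly covered genes, so a gene without a start codon peak may have had signal below it.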
